A study of Mus musculus with 4 samples.

Results

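Blood vessel endothelial cells line arteries, capillaries and veins. They were taken here from single-cell RNA sequencing of mouse hindlimb tissue around the Achilles tendon. A barcode was a member when it had 200 genes or more and no more than 20% of its UMIs (unique molecular identifiers, which tag captured transcripts) from mitochondrial genes. It also needed at least 3 UMIs of the junction genes Pecam1 and Cdh5 together, and at least 5 of those 2 genes with Kdr, Flt1, Emcn and Egfl7. Barcodes with 3 or more UMIs of the lymphatic genes Prox1, Mmrn1 and Ccl21a, or of the leukocyte genes Ptprc and Tyrobp, were left out. The rule found 85 members among 1241 filtered cells, which came from 2581 barcodes. Members were thus chosen by their UMIs of these 11 genes, whose levels are given as a description.

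There were 4 libraries, each 1 group, from mice examined at day 7. All mice had a dorsal burn over 30% of the body surface together with a cut through the left Achilles tendon, so the uninjured right limbs also came from burned mice. One pair of groups carried 2 copies of slie, a loss-of-function allele of the collagen receptor Ddr2, and the other pair were their littermates. Tissue of 2 mice was pooled in each library, and the allele is carried by all cells of the mouse. The injury site, tendon with surrounding tissue behind the tibia, was digested with collagenase and dispase. With 1 library per group there is no replicate error and no test between groups. Intervals are 95% intervals for counting error only, and spread between mice is unknown.

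As background, endothelial cells differ along the vascular tree. Arterial cells are known for gap junction genes and Notch targets, capillary cells of muscle for genes of fatty acid uptake, and venules for the adhesion molecules that leukocytes bind. When vessels sprout, tip cells turn on receptors and secreted factors of angiogenesis and lay down a new basement membrane around the tube.

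Members made up 12 of 60 filtered cells in the control uninjured library (20.0%, exact binomial interval 10.8 to 32.3%) and 25 of 751 in the control injured library (3.33%, 2.17 to 4.88%). In slie/slie they were 42 of 184 uninjured (22.8%, 17.0 to 29.6%) and 6 of 246 injured cells (2.44%, 0.900 to 5.23%). These shares describe the filtered barcodes. Fewer endothelial cells and a larger number of other cells cannot be told apart in them. Member cells held 101480, 538534, 330917 and 139188 UMIs in the order control uninjured, control injured, then slie/slie uninjured and injured. The median UMIs per member cell were 4732.5, 18793, 5304.5 and 27533.5, so injured-limb members were deeper. Of all barcodes in the control uninjured library, 991 of 1075 had under 200 genes. The limit for lymphatic genes removed 7 slie/slie uninjured barcodes and 1 control injured barcode, and the leukocyte limit removed 0. Just inside the marker limits were 1, 0, 3 and 1 cells in that order, and 3 slie/slie uninjured barcodes lay just outside. One barcode sequence was shared between the control injured and the control uninjured library, and it was not a member.

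The label was checked against genes that the rule did not read. The 28 further endothelial genes summed to 11372 CPM (UMIs of a gene per 1000000 UMIs of the summed members) in control uninjured, 12291 in control injured, 7174 in slie/slie uninjured and 9110.0 in slie/slie injured members. The other filtered cells of the same libraries held 1386, 316, 1787 and 269.6 CPM of them. The endothelial label thus held in the summed members of all 4 libraries, but not in every cell. Among the 85 members, 9 held more UMIs of the markers of another cell type than of the 34 endothelial genes. They were 8 slie/slie uninjured cells, of which 3 were richest in fibroblast, 3 in red cell, 1 in pericyte or smooth muscle and 1 in Schwann cell markers, and 1 slie/slie injured cell with 601 fibroblast marker UMIs against 29 endothelial UMIs. Values are for all members unless the text says otherwise. Gene counts and the main lists and genes of slie/slie are given also without these 9 cells, an alternative added after the data were seen.

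**Figure D1:**
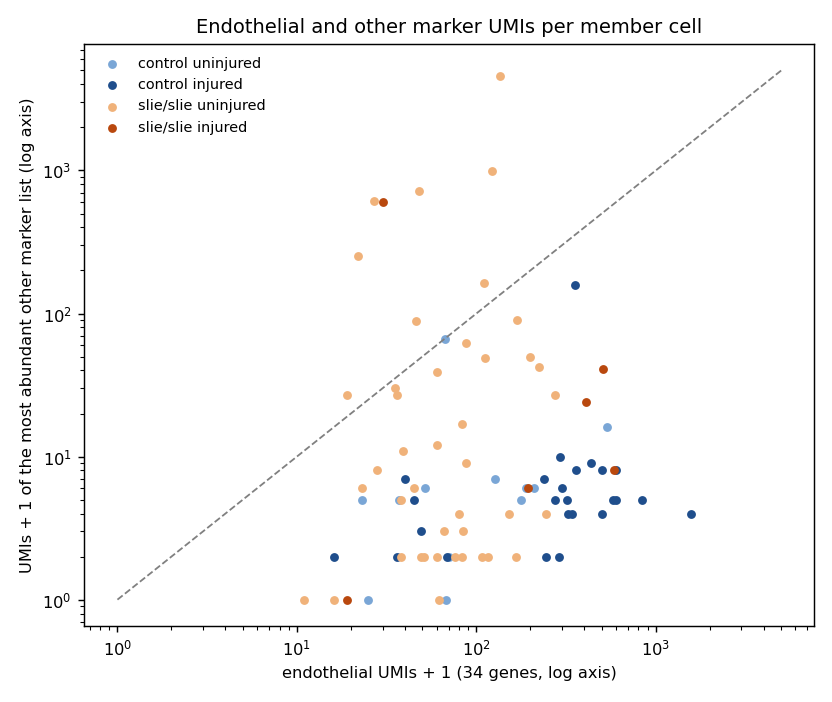
UMIs of 34 endothelial genes per member cell (horizontal, plus 1, log axis) against UMIs of the most abundant marker list of another cell type (vertical, plus 1, log axis), coloured by library. The dashed line marks equal counts, and the 9 cells above it are 8 slie/slie uninjured cells and 1 slie/slie injured cell.

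The genes of the rule are given as a description. Pecam1 and Cdh5, which encode adhesion molecules of endothelial junctions, stood at 897, 1287, 583 and 618 CPM, and at 660.2, 1097, 668 and 769 CPM, in the order control uninjured, control injured, then slie/slie uninjured and injured. The VEGF receptor Kdr had 197, 289.7, 384 and 208 CPM in that order, and the decoy VEGF receptor Flt1 had 512, 154, 405 and 71.8. The sialomucin Emcn had 355, 613, 441 and 812 CPM, and the secreted factor Egfl7 had 1439, 1354, 1079 and 891. Flt1 was lower, and Cdh5 and Emcn were higher, in both injured libraries than in both uninjured ones, and the other 3 genes showed no such split. Without the cells richer in another type Cdh5 was at 903 and 959.8 CPM and Emcn at 656 and 1053 CPM in slie/slie uninjured and injured members, so Emcn no longer split this way. Members held 82.6, 96.4, 80.0 and 96.5% of each library's UMIs of the 6 genes.

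Ddr2 itself, at chr1:169972307-170110762 on the minus strand of GRCm38 (the mm10 assembly), had 0 UMIs in the members of all 4 libraries. A count of 0 allows up to 29.6 CPM in control uninjured, 5.57 in control injured, 9.07 in slie/slie uninjured and 21.6 in slie/slie injured members. In the other filtered cells it had 21.2 and 32.9 CPM in the control uninjured and injured libraries, against 2.61 and 0 in slie/slie. Outside the endothelium the targeted gene thus had lower values in the libraries labelled slie/slie. The values of the uninjured pair rest on very few UMIs, so that pair is a weak check of the labels. Within the endothelium no library had a level that could check them. The related collagen receptor Ddr1 had 0, 1, 1 and 1 UMIs, and the collagen-binding integrin subunit Itgb1 had 414 CPM in the control uninjured, 1169.8 in the control injured, 982 in the slie/slie uninjured and 948 in the slie/slie injured library.

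The first comparison was injured against uninjured limb in control mice, over 25 and 12 cells. A gene was measured when it had at least 20 UMIs in the 2 libraries together. It was called when its CPM ratio, after adding 1 count to each sum, was at least 1.5-fold and the exact interval of the ratio excluded 1. Of 4770 measured genes 565 were higher (11.8%) and 407 lower (8.53%) in the injured limb, with a median log2 ratio of 0.03. With trimmed-mean scaling (TMM, edgeR) the median shifted by 0.15 and the split became 755 higher and 317 lower, or 70.4% higher among called genes against 58.1%. Both comparisons that could be computed share the 12 control uninjured cells. Of markers of other cell types, pericyte and smooth muscle genes summed to 818 CPM uninjured and 353 injured, and fibroblast genes to 168 and 188. Of the lymphatic list outside the rule, 1 gene was measured, the neuropeptide gene Nts, at 19.7 CPM uninjured and 425 injured, and the deepest injured cell held 129 of its 229 UMIs. In slie/slie injured members Nts had 20 and 15 UMIs in the cells with 29418 and 25649 UMIs. The lymphatic genes Prox1 and Mmrn1 had 0 UMIs in injured control members. The rule left out barcodes by these genes, so their absence cannot show whether cells with Nts are lymphatic. All 3 measured red cell markers were lower, and their list summed to 414 and 132 CPM. The part of these cells in the differences was not tested.

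Genes of sprouting vessels formed the group with the most higher members. Of 21 tip cell and angiogenic genes 17 were measured, and 15 were higher, against 11.8% of all measured genes. The peptide hormone gene Adm was the 1 called lower. The median log2 ratio was 2.82, or 2.18 with genes at 0 UMIs in the uninjured library placed at their bound, and it ranged from 1.98 to 2.99 over 14 alternative settings. In single cells the list summed to a lowest, median and highest of 0.682, 2.81 and 18.9 UMIs per 1000 UMIs of the cell in control uninjured, and 8.34, 14.4 and 38.9 in control injured members. In slie/slie the same 3 values were 0, 5.63 and 9.30 uninjured and 3.98, 11.1 and 46.8 injured. The medians of the injured libraries were thus above both uninjured medians, while single cells of all 4 libraries overlapped. The highest control uninjured value came from a cell with 1375 UMIs, and the highest slie/slie injured value from a cell with 406 UMIs, so both are loose. The other filtered cells held 5496 CPM of this list in control injured and 3699 in control uninjured, of which Sparc made up 4117 and 2539.

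**Figure D2:**
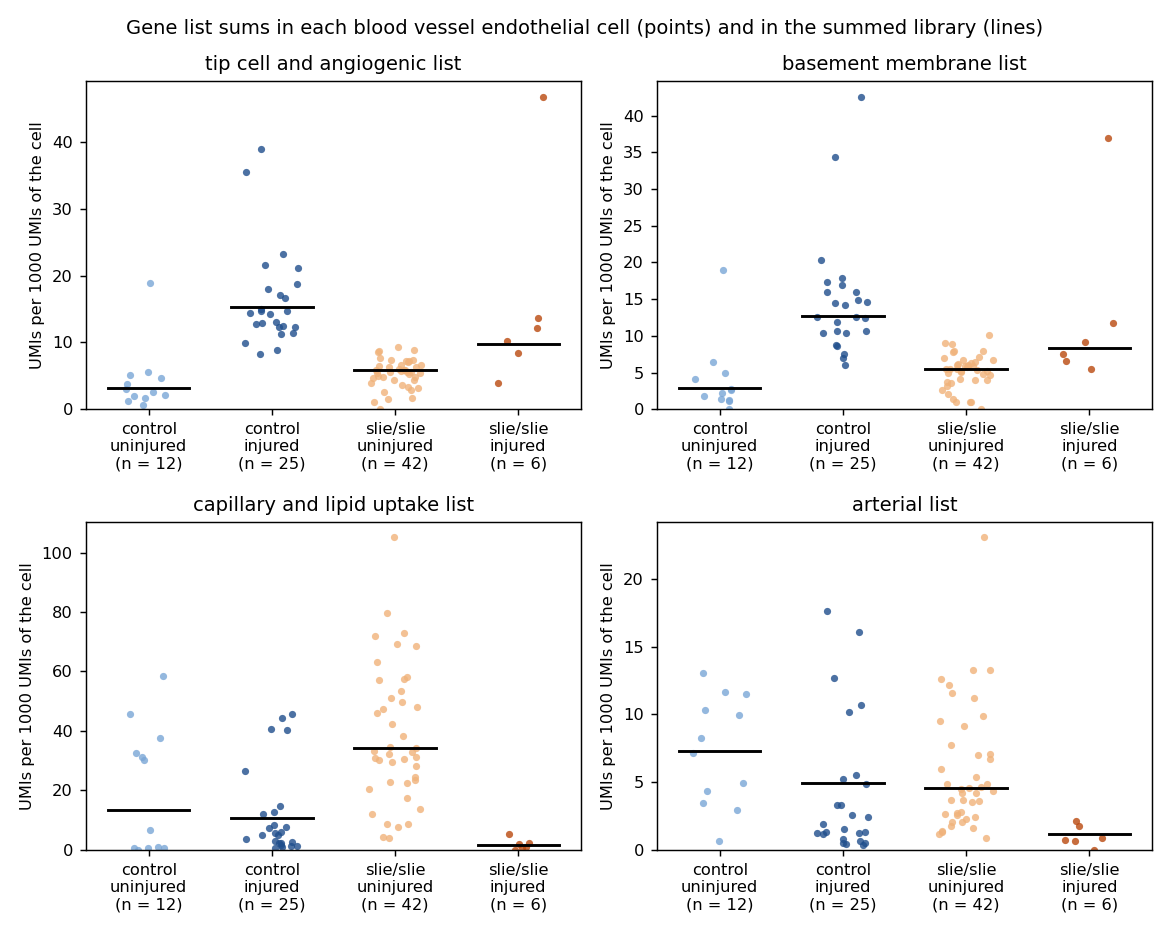
Summed UMIs of 4 gene lists per 1000 UMIs of each member cell (points, vertical axes from 0) by library, with the value of the summed library as a black line. Every control injured cell lies at 8.34 or higher on the angiogenic list, and no slie/slie injured cell exceeds 5.29 on the capillary list.

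Plvap, which encodes the protein of the diaphragms that span endothelial fenestrae and caveolae (chr8:71497765-71511752, minus strand), had 177 CPM in the control uninjured, 1937 in the control injured, 535 in the slie/slie uninjured and 1193 in the slie/slie injured library. It was 10.4-fold higher (6.87 to 18.5) in injured control members and lay at 6.30 CPM in the other cells of that library. Aplnr, the receptor for apelin, had 1 UMI against 113 and was 10.7-fold higher (3.75 to 848). Its ligand Apln and the tip cell proteoglycan Esm1 had 0 UMIs in the uninjured library against 58 and 54. With the 0 set at 3 counts they were 3.64-fold and 3.39-fold higher. Esm1 and Apln came from few cells, with 61.1% and 62.1% of their injured control UMIs in 1 cell each. Esm1 had 0 UMIs in the 6 slie/slie injured members, whereas Apln had 25, or 179.6 CPM (116 to 265). Angpt2, which encodes the Tie2 ligand angiopoietin-2, was 4.48-fold higher (1.96 to 29.1), and had 0 UMIs in slie/slie injured members. Without the 3 deepest cells of each library Angpt2 was at −0.070 (log2). The adhesion molecule Mcam was 4.52-fold higher (2.13 to 20.9) and the matrix protein gene Vwa1 12.5-fold higher (5.10 to 155). The slie/slie injured members held 302 and 144 CPM of Vwa1 and Mcam, against 368 and 221 in control injured members. Trp53i11 was 7.04-fold higher (2.83 to 87.4), and Emp1 was 3.47-fold higher (1.62 to 16.1).

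Basement membrane genes, which encode the sheet that encloses a vessel, share 6 genes with the angiogenic list. All 13 were measured, 11 were higher and none lower, with a median of 2.68 (range 1.85 to 2.83). The collagen IV chains Col4a1 (chr8:11198423-11312826, minus strand) and Col4a2 (chr8:11312805-11449287, plus strand) lie head to head, their annotated starts 21 bases apart. Col4a1 had 236 CPM in the control uninjured, 2915 in the control injured, 568 in the slie/slie uninjured and 1401 in the slie/slie injured library. Col4a2 had 197 CPM in the control uninjured, 1331 in the control injured, 335 in the slie/slie uninjured and 718 in the slie/slie injured library. They were 11.8-fold higher (8.25 to 19.3) and 6.44-fold higher (4.34 to 11.1) in injured control members, and in both genotypes the injured library was above the uninjured one. The ratio of both uninjured libraries was smaller, at 2.32-fold for Col4a1 and 1.64-fold for Col4a2, higher in slie/slie. These calls held in 9 of 14 alternatives for Col4a1 and in 5 for Col4a2, which was at −0.36 (log2) at 1000 UMIs per cell.

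Other layers of the same structure were high too. Col18a1 and Col15a1 encode the collagens whose fragments are endostatin and restin. Col18a1 was 7.79-fold higher (4.39 to 20.4) in injured control members. Col15a1 had 0 against 145 UMIs, 9.11-fold higher with the 0 set at 3 counts. The laminin chains Lama4, Lamb1 and Lamc1 were 5.42-fold (2.39 to 35.2), 7.07-fold (2.43 to 558) and 2.90-fold higher (1.34 to 13.5). The linker genes Nid1 and Nid2 stood at 9.85 and 0 CPM uninjured against 124 and 85.4 injured, and the perlecan gene Hspg2 at 39.4 against 303. The uninjured sums behind these laminin, nidogen and perlecan genes were between 0 and 4 UMIs, so the sizes of the ratios are loose. Sparc, a collagen-binding matricellular protein, had 2138 CPM in the control uninjured, 6477 in the control injured, 3928 in the slie/slie uninjured and 4304 in the slie/slie injured library, and was 3.02-fold higher (2.64 to 3.49) in injured control members. Sparc was abundant in the other filtered cells too, at 4117 CPM in control injured.

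**Figure D3:**
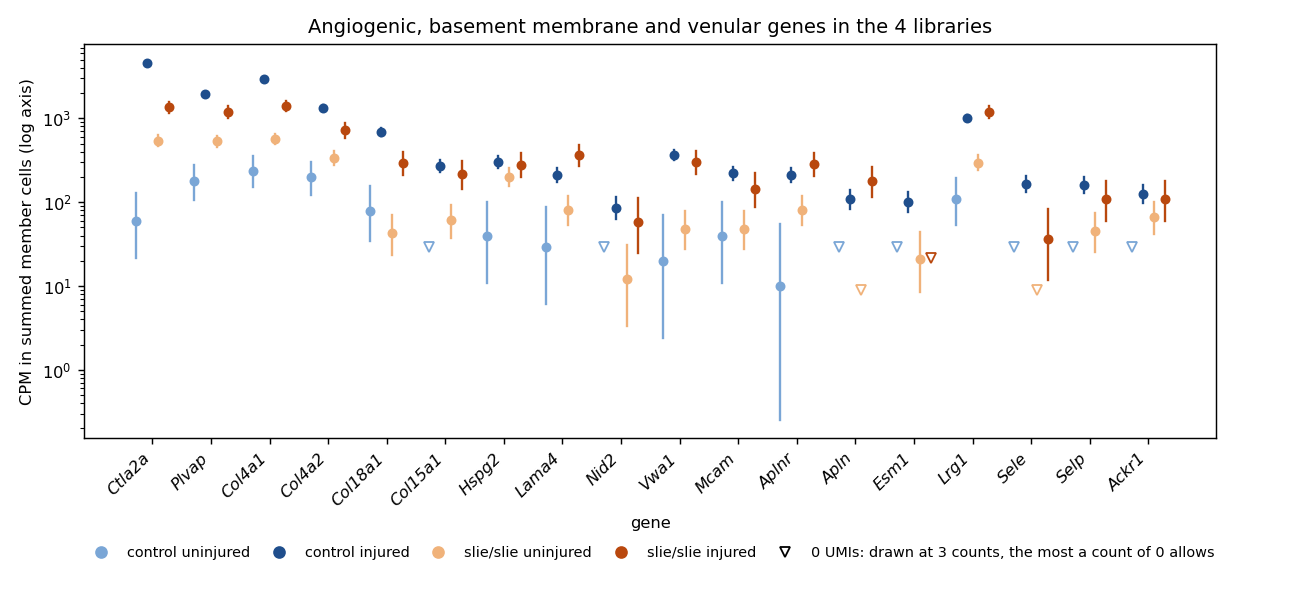
CPM (log axis) of 18 angiogenic, basement membrane and venular genes in the summed member cells of each library, with exact Poisson intervals as bars and triangles for 0 UMIs. For Plvap, Col4a1, Col4a2, Lrg1 and Col15a1 both injured libraries lie above both uninjured libraries.

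By the rule for single genes, the 10 highest endothelial-enriched genes of the injured control limb included Ctla2a, Mest, Col4a1, Aqp1, Col15a1, Plvap, Upp1 and Fam167b. Without the condition of enrichment over other cells, Ctgf and Lgals1 were also among the 10 highest. Ctla2a, which encodes a cysteine protease inhibitor, had 59.1 CPM in the control uninjured, 4538 in the control injured, 541 in the slie/slie uninjured and 1351 in the slie/slie injured library. It was 65.8-fold higher (35.2 to 209), and its median over single cells was 0 uninjured against 3778 CPM injured. Its reads may be split with the near-identical gene Ctla2b, so its level is uncertain. The imprinted gene Mest had 2 against 423 UMIs and was 26.6-fold higher (10.96 to 330.2). Fam167b had 1 against 184 UMIs, and Upp1, which encodes uridine phosphorylase, had 0 against 129, at least 8.10-fold higher. Mest, Fam167b and Upp1 were also above both uninjured libraries in slie/slie injured members, at 409.5, 287 and 144 CPM, or 531, 373 and 186 without the fibroblast-rich cell.

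Aqp1, a water channel gene of capillaries, was absent from the counts of control uninjured members and present in the other 3 libraries. It had 0 UMIs in the former, 271 CPM (229 to 319) in control injured, 568 (489.8 to 655) in slie/slie uninjured and 115 (65.7 to 187) in slie/slie injured members. The other filtered cells of those libraries held between 0 and 20.9 CPM. With the 0 set at 3 counts, control injured members were 9.17-fold and slie/slie uninjured members 19.2-fold above the control uninjured members. The exact intervals of these 2 ratios began at 7.36-fold and 15.5-fold. Aqp1 and Ctla2a are the 2 genes among the 10 highest of both comparisons computed here, and their promoters are shown for that reason. They were chosen after the values were seen. Each is the 250 bases before the gene's start in RefSeq (GRCm38.p6), at chr6:55336049-55336298 on the plus strand and chr13:60936626-60936875 on the minus strand, 5′ to 3′, with the letters GGAAG in capitals, the core bound by ETS factors, a family that endothelial cells are known to use.
Aqp1: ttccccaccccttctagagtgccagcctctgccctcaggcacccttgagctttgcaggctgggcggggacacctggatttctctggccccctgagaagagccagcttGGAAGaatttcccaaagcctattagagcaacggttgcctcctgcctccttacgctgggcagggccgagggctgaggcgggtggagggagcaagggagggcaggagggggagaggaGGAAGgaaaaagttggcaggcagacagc
Ctla2a: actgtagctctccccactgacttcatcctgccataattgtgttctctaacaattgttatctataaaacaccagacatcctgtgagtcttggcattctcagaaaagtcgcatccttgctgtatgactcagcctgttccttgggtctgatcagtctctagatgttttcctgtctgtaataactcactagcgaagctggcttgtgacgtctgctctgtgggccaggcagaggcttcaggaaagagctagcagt
The letters were searched on both strands. They occur 2 times before Aqp1 and 0 times before Ctla2a, and in 64.1% of 32851 RefSeq promoters of the same length. The longer form CCGGAAGT, which holds these letters, is in 2.88% of them and in neither of these 2. The 2 genes thus did not share these letters in this window. Other forms of ETS sites were not searched, so whether Ctla2a has an ETS site here was not tested.

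Venous genes and genes of leukocyte adhesion were also higher in the injured control limb. Both lists hold Icam1, Vcam1, Sele, Selp, Ackr1 and Lrg1, so their counts are not separate results. The other filtered cells of the control injured library held more of the adhesion list than its members, 3772 against 2603 CPM. Of 12 measured venous genes 7 were higher and 2 lower, with a median of 1.77. The sum of the list moved the other way, from 4868 to 2589 CPM. The calcification inhibitor gene Mgp made up 435 of 494 uninjured UMIs. Lrg1, a secreted glycoprotein gene of inflamed venules, had 108 CPM in the control uninjured, 1023 in the control injured, 296 in the slie/slie uninjured and 1193 in the slie/slie injured library and was 8.67-fold higher (5.23 to 19.02). The atypical chemokine receptor Ackr1 and the selectins Selp and Sele, on which leukocytes roll, had 0 UMIs uninjured against 68, 86 and 89 injured. With the 0 set at 3 counts they were 4.27-fold, 5.402-fold and 5.59-fold higher. One cell held 86.5% of the Sele, 54.7% of the Selp and 55.9% of the Ackr1 UMIs in the injured control library. Icam1, an integrin ligand, was 3.27-fold higher (1.26 to 40.7) and the chemokine gene Ccl2 had 0 against 51 UMIs, though Ccl2 was higher still in the other cells of that library at 215 CPM. Of the 9 measured adhesion and inflammatory genes 6 were higher and 1, the NF-kB inhibitor Nfkbia, was lower. Their median was 3.12, or 1.71 with zeros at their bound. At 1000 UMIs per cell few of these genes were measured and both medians were negative, −0.67 for venous and −0.26 for adhesion genes. The clotting factor gene Vwf was 3.54-fold lower (1.77 to 6.64), with a log2 ratio of −1.82 that became −1.37 and missed the limit without the deepest control uninjured cell.

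Several lists of the injured control limb concerned growth and metabolism, and their counts are to be read against 11.8% higher and 8.53% lower among all measured genes. Of 9 measured cell cycle genes 7 were higher and none lower, with a median of 1.5 (0.71 to 1.80). Mki67, Birc5 and Ccnb2 had 0 UMIs uninjured against 24, 44 and 41 injured, and 1 cell held 54.5% of the Birc5 UMIs. All 3 had 0 UMIs in slie/slie injured members. Of 9 measured genes of mesenchymal transition 6 were higher, among them the intermediate filament gene Vim with 2247 CPM in the control uninjured, 9483 in the control injured, 1895 in the slie/slie uninjured and 9527 in the slie/slie injured library. Vim was 4.20-fold higher (3.70 to 4.84), and the 2 injured libraries differed little. Snai1, a transcription factor of that transition, had 0 against 24 UMIs, and S100a4 was 3.22-fold higher (1.78 to 8.50). Tagln, a smooth muscle gene, was 3.58-fold higher (1.39 to 44.6) but stood higher in the other cells, at 603 CPM. Heat shock genes were higher in 4 of 6 and glycolysis and hypoxia genes in 4 of 14, with 2 lower. Hspa8 was 2.33-fold higher (1.81 to 3.13), Gapdh 2.52-fold higher (2.02 to 3.27), Pkm 2.41-fold higher (1.63 to 4.07) and the hypoxia factor Hif1a 4.21-fold higher (2.35 to 11.1). The integrin subunit Itgb1 was 2.77-fold higher (2.07 to 3.96), the 1 called among 3 measured collagen receptors, whose median was −0.48.

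**Figure D4:**
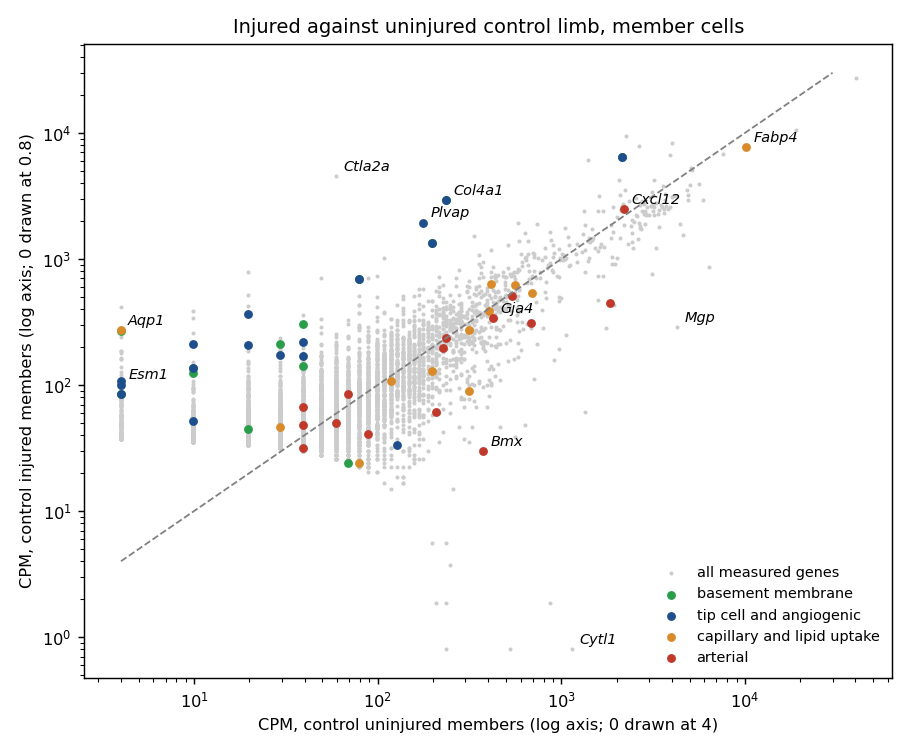
CPM of the 4770 measured genes in the summed control uninjured (horizontal) and control injured (vertical) members, both on log axes, with 4 gene lists in colour and equal levels as a dashed line. Genes on both the angiogenic and the basement membrane list are drawn as angiogenic; most of both lists lie above the line, and Bmx, Mgp and Cytl1 lie far below it.

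Interferon response, antigen presentation and arterial genes were the lists with 4 or more lower members and no higher ones in the injured control limb. Of 14 measured interferon response genes 6 were lower and none higher (median −0.87, range −1.07 to −0.49), against 8.53% of all measured genes. Ly6c1, a surface gene of capillary endothelium, had 4582 CPM in the control uninjured, 1549 in the control injured, 3218 in the slie/slie uninjured and 345 in the slie/slie injured library, and was 2.96-fold lower (2.64 to 3.32). Ly6e and Bst2 were 2.17-fold lower (1.82 to 2.55) and 1.6-fold lower (1.21 to 2.07), and the interferon-inducible GTPase gene Iigp1 was 3.03-fold lower (1.6 to 5.35). Of 6 measured antigen presentation genes 4 were lower and none higher, with a median of −0.91. The class I genes H2-K1, H2-D1 and H2-Q4 were 2.04-fold, 1.54-fold and 3.70-fold lower, and the peptide transporter gene Tap2 was 4.80-fold lower (2.38 to 9.51). H2 genes are near copies of each other, so counts of single members are uncertain. The slie/slie injured members were lowest of the 4 libraries on both lists, at 5058 and 1509 CPM, against 15826 and 5508 in control uninjured members.

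Arterial genes were lower in part. Of 15 measured, 4 were lower and none higher, with a median of −0.34 (−0.94 to 0.04). The kinase gene Bmx had 374 CPM in the control uninjured, 29.7 in the control injured, 21.2 in the slie/slie uninjured and 0 in the slie/slie injured library, and was 12.2-fold lower (6.86 to 24.2) in the injured control limb. The Notch target Hey1 was 3.43-fold lower (1.86 to 6.01), the transcription factor Sox17 2.20-fold lower (1.62 to 2.90) and the chaperone gene Clu 4.16-fold lower (3.42 to 5.05). Gja4, which encodes the gap junction protein connexin 37, was not called at 424 against 339.8 CPM, but was called lower, at −1.06 (log2), without the deepest control uninjured cell. One cell, however, held 85.8% of the injured control UMIs of Gja4, and the median over cells was 456 CPM uninjured and 0 injured. The chemokine gene Cxcl12 was likewise similar in the sums, 2188 and 2485 CPM, with cell medians of 2192 and 169 CPM, as 1 cell held 51.9% of its injured UMIs. For these 2 genes the sum and the typical cell of the injured control limb thus differed.

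The 10 lowest endothelial-enriched genes were Cytl1, Ptn, Gkn3, Slco1a4, Thrsp, Igf2, Pltp, Net1, Mgp and Rgs5. Cytl1 and Gkn3, which encode secreted proteins, had 116 and 53 UMIs uninjured against 0 injured. Single cells held 79.3% and 86.8% of those UMIs. With the 0 set at 3 counts the 2 genes were 205-fold and 93.8-fold lower, and their exact intervals began at 164-fold and 73.6-fold. Mgp was 14.9-fold lower (12.4 to 18.1), and 1 cell held 59.8% of its 435 uninjured UMIs. The lipogenic gene Thrsp and the growth factor gene Igf2 were spread over 5 uninjured cells each, at 21 against 1 UMI and 25 against 2. Rgs5, best known as a pericyte gene, was 14.0-fold lower (8.60 to 25.02), and its 57 uninjured UMIs lay in 2 cells. One uninjured cell held 65 of the 83 pericyte and smooth muscle marker UMIs of that library's members, a list that includes Rgs5. Whether the Rgs5 difference is one of endothelial cells was not tested. Cldn5, which encodes the tight junction protein claudin-5, was not among the 10 but had 1754 CPM in the control uninjured, 282 in the control injured, 196 in the slie/slie uninjured and 144 in the slie/slie injured library, 6.21-fold lower (4.98 to 7.77) in the injured control limb.

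Some of these rested on 1 cell. The deepest control uninjured member held 39866 UMIs, 39.3% of all UMIs of the 12 cells. It carried all 24 UMIs of the organic anion transporter Slco1a4, all 88 of the growth factor gene Ptn and all 32 of Nxpe2. It also held 89.1% of the UMIs of the phospholipid transfer protein gene Pltp, 71.4% of those of the glucose transporter Slc2a1, 66.9% of Cldn5 and 0 of Gkn3, Cytl1, Gja4 and Cd36. As background, Slco1a4, Slc2a1 and Cldn5 are known from the endothelium of blood-tissue barriers. Without that cell the log2 ratio of Ptn went from −7.88 to −2.13 and missed the limit, and that of Nxpe2 turned from −1.67 to 2.65. Pltp went from −4.43 to −2.04, Net1 from −5.05 to −3.45 and Cldn5 from −2.63 to −1.78, all still past the limit, and Slco1a4 could not be measured. Over all genes 361 were then higher and 386 lower, in place of 565 and 407.

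The capillary list had few called genes between the control limbs, while its median over single cells was 18.5 UMIs per 1000 uninjured against 5.83 injured. Of 12 measured genes 1 was higher, Aqp1, and 2 were lower, the transcription factor Tcf15 at 3.57-fold lower (2.19 to 5.65) and the glycerol channel Aqp7 at 3.41-fold lower (1.17 to 8.50), with a median of −0.23 (−1.01 to −0.09 over the alternatives). The fatty acid carrier Fabp4 had 10169.5 CPM in the control uninjured, 7714 in the control injured, 25233 in the slie/slie uninjured and 905 in the slie/slie injured library. Fabp4 and Cd36 were not called, with log2 ratios of −0.40 and −0.37, but were called lower in 5 of 14 alternatives each, down to −1.48 and −1.47 without called doublets. The sums hid a spread between cells. On the capillary list 6 of 12 uninjured and 5 of 25 injured control cells had at least 20 UMIs per 1000, a limit chosen after the values were seen. The highest value under it was 6.82 and 14.8, and the lowest over it 30.1 and 26.4. In the injured library, the 5 cells over the limit had a median of 14.6 UMIs per 1000 on the angiogenic list, and the 20 under it had 13.7. The angiogenic list was thus at a similar level in injured control cells with many and with few capillary transcripts.

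Signalling lists were mixed in the injured control limb, where 11.8% of all measured genes were higher and 8.53% lower. Of 7 measured VEGF and Tie genes 3 were higher and 1 lower, of 12 BMP and TGF-beta genes 3 were higher and 3 lower, and of 9 Notch genes none was higher and 1, Hey1, was lower. Id3, a target of BMP signalling, was 1.71-fold lower (1.39 to 2.07). Of 9 flow-responsive genes 1, the metalloproteinase inhibitor gene Timp3, was 4.95-fold lower (3.15 to 7.74). For the Notch and flow-responsive lists, 1 lower gene of 9 is close to the share over all genes. The flow-induced transcription factors Klf2 and Klf4 were not called, at 1222 against 954 and 335 against 269 CPM. Both were called lower in 4 of 14 alternatives, Klf2 down to −1.19 with cells weighted equally and Klf4 down to −1.96 without the 3 deepest cells. Among the 28 further endothelial identity genes 8 were higher and 7 lower (median −0.06), the former including Cd34, a sialomucin of capillaries and tip cells, at 2.87-fold higher (2.03 to 4.52).

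The second comparison set the uninjured slie/slie limb (42 cells) against the uninjured control limb (12 cells). Of 3533 measured genes 346 were higher (9.79%) and 276 lower (7.81%) in slie/slie, with a median log2 ratio of −0.04. With TMM scaling the median shifted by 0.17 and 510 were higher and 199 lower, or 71.9% higher among called genes against 55.6%. Capillary genes were higher and arterial genes lower in the slie/slie members.

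All 16 capillary and lipid uptake genes were measured and 14 were higher, against 9.79% of all measured genes, with a median of 1.38 (0.58 to 1.64 over the alternatives). Fabp4 was 2.48-fold higher (2.33 to 2.65), and the fatty acid translocase Cd36 1.81-fold higher (1.42 to 2.39). The calls held in 12 of 14 alternatives for Fabp4, down to 0.32 (log2), and in 10 for Cd36. The deepest control uninjured cell held 39.3% of that library's member UMIs, but 2 of 1032 Fabp4 and 0 of 70 Cd36 UMIs. Gpihbp1, which anchors lipoprotein lipase in capillaries, had 562 CPM in the control uninjured, 622 in the control injured, 1665 in the slie/slie uninjured and 71.8 in the slie/slie injured library, 2.92-fold higher (2.25 to 3.97) in slie/slie uninjured members. Lpl, the lipase itself, was 5.15-fold higher (2.39 to 23.9), though the other cells of that library held more of it, 630.5 CPM. The cell cycle regulator Rgcc was 3.05-fold higher (2.18 to 4.66), the carbonic anhydrase Car4 7.87-fold higher (3.12 to 98.0) and the inhibitor Timp4 6.95-fold higher (3.87 to 18.3). Fabp5, Tcf15, Aqp7, Btnl9, Cd300lg and Mgll lay between 1.69-fold and 2.99-fold higher. In single cells the list had a lowest, median and highest of 4.13, 33.2 and 105 UMIs per 1000, against 0, 18.5 and 58.5 in control uninjured members. Thus 34 of 42 slie/slie and 6 of 12 control uninjured cells were at 20 or more, and the ranges overlapped. Cd36, Fabp5 and Aqp7 changed sign under an alternative. Cd36 was at −0.016 (log2) without called doublets and Fabp5 at −0.27 without the 3 deepest cells of each library, settings that left 9 control uninjured cells, and Aqp7 was at −0.74 at 1000 UMIs per cell.

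**Figure D5:**
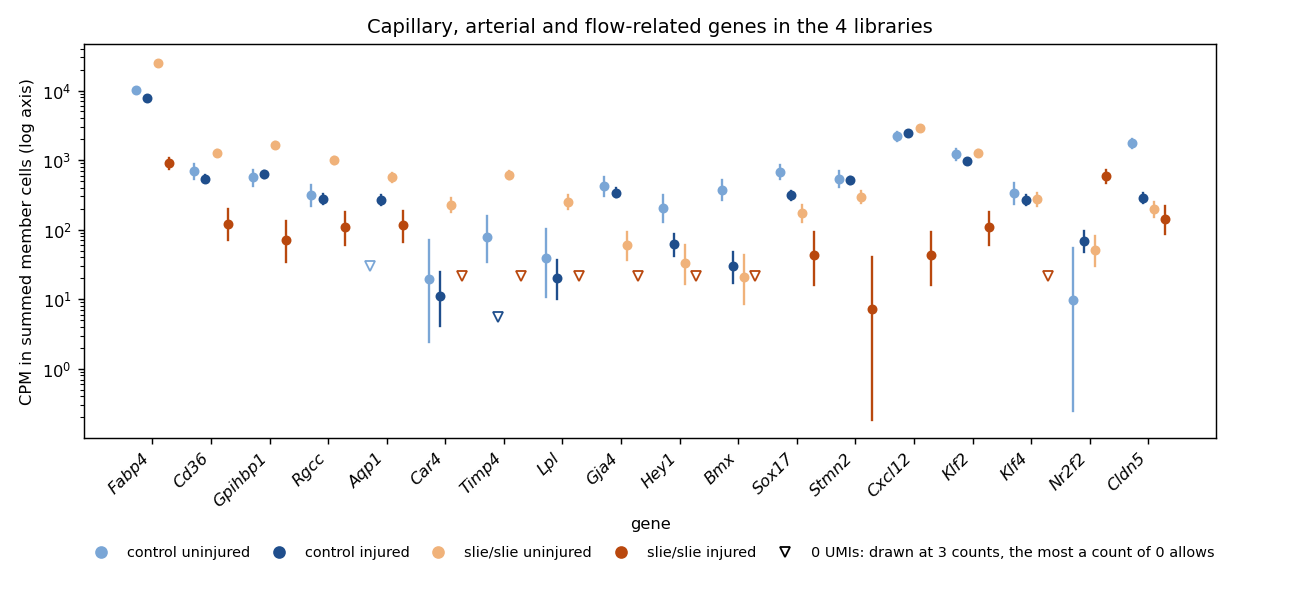
CPM (log axis) of 18 capillary, arterial and flow-related genes in the summed member cells of each library, with exact Poisson intervals as bars and triangles for 0 UMIs. The slie/slie uninjured members are highest for the 8 capillary genes at the left, and the slie/slie injured members are lowest for Fabp4, Cxcl12, Klf2 and Klf4.

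Of 14 measured arterial genes 8 were lower and none higher in slie/slie uninjured members, against 7.81% of all measured genes, with a median of −1.30 (−1.81 to −0.84). Gja4 had 424 CPM (307 to 571) in control and 60.4 (36.9 to 93.3) in slie/slie uninjured members and was 6.83-fold lower (4.04 to 12.6). Bmx was 15.9-fold lower (7.81 to 47.0), Hey1 5.98-fold lower (2.87 to 14.3) and Sox17 3.94-fold lower (2.74 to 5.71). Clu, the matrix gene Fbln5, the phosphatase Alpl and the tubulin regulator Stmn2 were 4.74-fold, 3.14-fold, 2.77-fold and 1.83-fold lower. Without the deepest control cell Gja4 was at −3.49, Bmx at −4.23 and Sox17 at −1.70 (log2), all called. The arterial list per cell had a median of 7.68 UMIs per 1000 in control and 4.40 in slie/slie uninjured members, and the highest cell was a slie/slie one at 23.1. The lower arterial level was therefore one of the sum and the median, and single arterial-rich cells were present in slie/slie: 7 of 42 cells had at least 10 UMIs per 1000, against 4 of 12 control uninjured cells.

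Among the remaining identity genes Cldn5 was 8.84-fold lower (6.69 to 12.1) in slie/slie uninjured members, and without the deepest control cell its log2 ratio went from −3.14 to −2.29. Of 25 measured, 10 were lower and 2 higher, with a median of −0.60 (−0.87 to −0.10 over the 14 alternatives). Without the cells richer in another type some of these genes lay near control and others did not. Ecscr was then at 415 and Eng at 197 CPM, against 434 and 207 in control uninjured members, and Cldn5 at 257 against 1754. The part of the other cell types in this median was not tested. The vasoconstrictor gene Edn1 was 2.95-fold lower (1.93 to 4.47). Interferon genes were lower in 4 of 13 and higher in none, among them Ly6e at 1.66-fold lower (1.39 to 1.97) and Bst2 at 2.00-fold lower (1.47 to 2.69). The call of Ly6e was lost in 6 of 14 alternatives, with a log2 ratio of up to −0.22. Klf2 and Klf4 were not called, at 1284 and 272 CPM in slie/slie. The heat shock gene Hspb1 was 2.07-fold higher (1.59 to 2.82).

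Angiogenic and basement membrane genes were also higher in slie/slie uninjured members, to a smaller extent than between the control limbs; both contrasts share the control uninjured cells, and their difference was not tested. Of 10 measured angiogenic genes 6 were higher and 1 lower, with a median of 1.02 (0.11 to 1.504 over the alternatives). Of 10 basement membrane genes 6 were higher and none lower, with a median of 0.99 (0.067 to 1.16). The other filtered cells of the slie/slie uninjured library held more of both lists than its members, 9051 against 5875 and 9438 against 5518 CPM. The same held in the control uninjured library, at 3699 against 3153 and 4158 against 2868 CPM. The part of these other cells in the differences was not tested. Plvap was 2.87-fold higher (1.85 to 5.21), but 1 cell held 39.5% of its UMIs and the median over cells was 0. Hspg2 was 4.11-fold higher (1.89 to 19.1). Ackr1 had 0 against 22 UMIs, of which 1 cell held 86.4%. Venous genes were higher in 5 of 9 and lower in 2, and here too the sum moved the other way, from 4868 to 1849 CPM.

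The 10 lowest endothelial-enriched genes of slie/slie uninjured members were Gkn3, Slco1a4, Gpcpd1, Nxpe2, Bmx, Cldn5, Ptn, Lmo2, Mgp and Glul. Slco1a4, Ptn, Nxpe2 and 92.2% of the UMIs of the phosphodiesterase gene Gpcpd1 came from the deepest control cell. Without it Ptn turned from −3.32 to 2.43 and Pltp from −2.21 to 0.17, and Nxpe2 went from −4.43 to −0.10 and Gpcpd1 from −4.14 to −1.43, both short of the limit. The glutamine synthetase gene Glul, at 6.99-fold lower (4.67 to 10.99), and the transcription regulator Lmo2, at 8.76-fold lower (4.96 to 17.7), were still called at −1.82 and −3.13.

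The 10 highest were Hist1h2ap, Aqp1, Spp1, Fmod, Timp1, Tnc, Thbs4, Ctla2a, Timp4 and Car4. Single cells held 98.6% of the Hist1h2ap, 79.2% of the Spp1, 77.4% of the Fmod, 91.8% of the Timp1, 96.7% of the Tnc and 82.7% of the Thbs4 UMIs. Without the 8 cells richer in another cell type, Spp1 turned from 5.37 to −1.0, and Hist1h2ap at 1.32, Tnc at 0.0024 and Thbs4 at 2.32 were no longer called. Fmod was at 3.17, from 17 UMIs in slie/slie and 0 in control uninjured members. Spp1 had 1 UMI in each, and Hist1h2ap, Tnc and Thbs4 had 4, 1 and 9 UMIs against 0. All 5 genes were thus under the minimum for a measured gene, so these values are loose. Timp1 had 0 UMIs in both libraries and could not be measured either. Aqp1, Ctla2a, Timp4 and Car4 were at 6.23, 3.45, 3.18 and 3.57, each larger than with those cells.

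Markers of other cell types moved with this comparison. Ranked without the enrichment condition, the 10 highest genes included Col1a1, Col3a1 and Col1a2 of fibroblasts, and Tagln and Acta2 of smooth muscle. Called higher were 5 of 6 measured fibroblast, 4 of 5 pericyte and smooth muscle, 4 of 4 red cell, 3 of 3 Schwann and 6 of 6 myofibre markers. The fibroblast markers summed to 3971 CPM in slie/slie uninjured and 168 in control uninjured members, and the red cell markers to 14783 and 414. Without the 8 cells 218 genes were higher and 170 lower, in place of 346 and 276. The capillary median was then 1.64 and the arterial median −0.84, in place of 1.38 and −1.30. Without those cells slie/slie uninjured members held 33402 CPM of Fabp4, 824 of Plvap, 1772 of Klf2, 2102 of Gpihbp1 and 88.8 of Gja4, each higher than with them. The medians of cell cycle genes, 1.22 with these cells, turned to −0.26 without them. The monocyte and macrophage and the T cell markers stood at 112 and 0 CPM in slie/slie uninjured and at 9.85 and 0 in control uninjured members. The part of these other cell types in the differences was not tested.

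The slie/slie injured library held 6 members, under the minimum of 10, so only levels are given. They had 39542, 31875, 29418, 25649, 12298 and 406 UMIs. The cell with 31875 UMIs had 0 UMIs of Pecam1 and 471 of the fibroblast gene Dcn, and it is the one richer in fibroblast markers. Values of the other 5 cells, with 107313 UMIs, are given for the genes described next; genes without a UMI in that cell are higher over the 5 cells by the smaller total alone.

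These 6 cells had angiogenic and basement membrane levels above both uninjured libraries, at 9692 CPM (9182 to 10223) and 8327 CPM (7854 to 8820.4) for the 2 lists. The control injured members had 15277 (14948 to 15610.4) and 12753 (12453 to 13058). Plvap was detected in all 6, with 47, 1, 44, 36, 37 and 1 UMIs from the deepest to the shallowest cell, and Lrg1 in 4 of them with 36, 56, 48 and 26. In the 5 cells without the fibroblast-rich one, Plvap had 1538 CPM, Col4a1 1566, Lrg1 1547 and Vim 11257. Lrg1 and Vim intervals over all 6 cells, 1018 to 1388 and 9021 to 10054 CPM, overlapped those of the control injured members, 939 to 1112 and 9225 to 9747, and over the 5 cells both genes lay above them. Plvap, Col4a1 and Ctla2a lay lower than in control injured members with or without that cell.

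The arterial and capillary lists had their lowest sums in these 6 cells, at 1193 and 1796 CPM against 4963 and 10866 in control injured members. Gja4, Gja5, Hey1 and Bmx had 0 UMIs in 139188, which allows up to 21.6 CPM each, against 339.8, 31.6, 61.3 and 29.7 CPM in control injured members. Cxcl12 had 6 UMIs, 43.1 CPM (15.8 to 93.8) or 55.9 over the 5 cells, against 2485 (2353 to 2621). One control injured cell held 85.8% of the Gja4 and 51.9% of the Cxcl12 UMIs of that library and 1278 of its 2673 arterial UMIs, and the medians over its cells were 0 CPM for Gja4 and 169 for Cxcl12. Klf2 had 108 CPM (60.3 to 178), or 139.8 over the 5 cells, against 954 (874 to 1041), and Klf4 had 0 UMIs against 269 CPM. Fabp4 had 905 CPM (754 to 1078) against 7714 (7481 to 7952), and over the 5 cells 1174. Stmn2 and Ly6c1 had 7.18 and 345 CPM, or 9.32 and 447 over the 5 cells, against 509 and 1549. The highest of the 6 cells on the arterial list had 2.11 UMIs per 1000 and on the capillary list 5.29, whereas the medians of control injured cells were 1.93 and 5.83. The control injured library held cells as low as 0.387 and 0.579, and the lowest of the 6 cells had 0 on both lists, so the ranges overlapped. That lowest cell had 406 UMIs, so its 0 on both lists is a loose value.

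The venous regulator Nr2f2 had 582 CPM (462 to 723) in slie/slie injured members, above 9.85, 68.7 and 51.4 in the other 3 libraries. The fibroblast-rich cell held 59 of its 81 UMIs, and the other 5 cells had 205 CPM (128 to 310.4), still above the control injured interval of 48.4 to 94.7. Ackr1, Selp and Sele had 108, 108 and 35.9 CPM over 6 and 139.8, 139.8 and 46.6 over 5 cells. These levels come from 1 library of 6 cells from 2 pooled mice, and whether another sample of slie/slie injured endothelium would show the same was not tested.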

How the data were processed

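Single-cell libraries of mouse hindlimb tissue were analysed from the counts the authors deposited, UMIs per gene and barcode. Per the file headers they were made with Cell Ranger 5.0.1, and the submitters' processing notes name mm10; no source used here names the annotation. Member cells and gene lists were chosen with earlier results of these data known. Member UMIs were summed per library and divided by the total (CPM). A comparison needed 10 cells in both libraries, so the slie/slie injured library entered none. The ratio of CPM, after adding 1 count, has an exact conditional binomial 95% interval; genes needed 20 UMIs over both libraries. The script was tested on simulated data. A CPM interval is exact Poisson, and a count of 0 was set at 3 counts. Folds against such a 0 leave out the counting error of the other library.

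Single genes are named as follows: the 10 highest and 10 lowest by the interval bound nearest 1 among genes at least 2 times as high in members as in other filtered cells, leaving out mitochondrial, ribosomal, hemoglobin, predicted and sex-linked genes, and the list members past the limit. Scrublet called 14, 0, 4 and 2 of the filtered cells doublets in the control uninjured and injured and the slie/slie uninjured and injured libraries, of which 3, 0, 1 and 0 were members; they were kept, and left out as an alternative. It called none in the control injured library, so doublets there were not removed under any setting. Tools were Python 3.11.15, scanpy 1.11.5, scipy 1.17.1 and edgeR 4.0.16, the last for TMM factors only. Alternatives changed the gene, mitochondrial, marker and leukocyte limits, the depth, weighting, scaling and low-count filter. Some genes that the rule names are not reported here.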

Additional observations from a re-analysis of the deposited data

Results flagged for a closer look

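Several genes had a difference between limbs of opposite sign in the 2 genotypes; with 1 library per group the difference between genotypes was not tested. In slie/slie injured members Aqp1 was at 115 CPM, Timp1 at 101, Nxpe2 at 79.0, Lmo2 at 129 and Fabp5 at 35.9. Clu was at 697 CPM there, S100a4 at 7.18, Tagln at 165 and Slc2a1 at 158, while Birc5 had 0. Without the cells richer in another type the sign was no longer opposite for Timp1, at 0 CPM in slie/slie uninjured and 112 in slie/slie injured members, and Birc5 was at 0 in both. The values of the other 8 genes still moved in opposite directions. For Slc2a1, at 9.87 (1.20 to 35.7) and 28.0 (5.77 to 81.7) CPM, the slie/slie intervals overlapped. The same held for Clu, at 592 (491 to 708) and 792 (633 to 979) CPM, and for S100a4, at 24.7 and 9.32 CPM. The opposite sign of Nxpe2 rested on the deepest control uninjured cell, which held all 32 Nxpe2 UMIs of that library's members. Without that cell the control log2 ratio of Nxpe2 turned from −1.67 to 2.65.

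Endothelial signal also lay outside the members. Barcodes under 200 genes of the control uninjured library held 27 UMIs of the 6 genes of the rule, against 412 in its members. Over all libraries, 8 barcodes passed the endothelial limits but held 3 or more lymphatic UMIs.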

How the results depend on the processing

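No paired analysis was possible because each group has 1 library. Called doublets, the 3 deepest cells and stricter marker limits each left 9 control uninjured cells, under the minimum of 10. The causes of the shifts below were not tested. Shares of members became 5.65% among injured control cells and 5.32% among injured slie/slie cells without barcodes under 0.5% mitochondrial UMIs, and 15.2% in slie/slie uninjured cells with stricter limits.

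Between the control limbs, genes higher were 282 without doublets, 361 without the deepest control uninjured cell, 897 with cells weighted equally, 232 without the 3 deepest cells and 28 at 1000 UMIs per cell. Genes lower were 705 with equal weights, 246 without the 3 deepest cells, 27 at 1000 UMIs and 667 with no filter on low counts. At 1000 UMIs the medians of venous and of adhesion genes were −0.67 and −0.26, Emcn was at −0.26, Nid1 at −1.0 and Vwf at 0.32 (log2). Nxpe2 was at 2.27 without doublets, 0.55 with equal weights, 2.49 without the 3 deepest cells and 2.65 without the deepest control uninjured cell. Adm was at 1.62 with stricter limits, and Angpt2 at −0.070 without the 3 deepest cells.

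Between the uninjured limbs, genes higher were 140 without doublets, 116 without the 3 deepest cells, 218 without cells richer in another type and 34 at 1000 UMIs. Genes lower were 474 with equal weights, 136 without the 3 deepest cells, 170 without richer cells, 26 at 1000 UMIs and 509 with no filter. Without doublets cell cycle genes had a median of −0.10, Ptn was at 1.24, Pltp at 0.99, Hist1h2ap at −0.24, Tnc at −0.98 and Cd36 at −0.016. Without the 3 deepest cells the cell cycle median was −0.34, Ptn was at 1.16, Pltp at 0.52, Hist1h2ap and Timp1 at −1.06, Tnc at −1.65 and Fabp5 at −0.27. Without the deepest control uninjured cell Ptn was at 2.43 and Pltp at 0.17, and without richer cells the cell cycle median was −0.26 and Spp1 at −1.0. That Spp1 value rests on 1 UMI in each library. Adm was at 1.32 with stricter limits, and the venous median was −0.13 with equal weights. At 1000 UMIs the venous and adhesion medians were −3.06 and −0.51, Col15a1, Aqp7 and Ackr1 were at −0.74, Timp1, Tnc and Lamb1 at −0.15, Col4a2 at −0.36, Aplnr at −1.74 and Lrg1 at −0.42. Hist1h2ap, Timp1, Tnc, Col15a1 and Ackr1 had 0 UMIs in control uninjured members. Their negative values here come from the added count and the unequal totals, so they are no sign of lower levels in slie/slie.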
